A study of Oryctolagus cuniculus with 57 samples.

Results

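The genes described here build ribosomes: the cytoplasmic ribosomal proteins (symbols beginning RPL or RPS and a digit, without the RPS6K kinases), the mitochondrial ribosomal proteins (MRPL and MRPS) and the assembly factors named UTP or NOP and a digit. The rule reads the symbol alone, and every gene with such a symbol and a probe was kept. UTP15 alone got its symbol from the study's lists of genes called as changed with age in these same data. It is thus a member because it was already called, and member counts that include it rest in part on that call. The rule found 57 genes among the 8291 named genes of the rabbit array's value table, measured by 135 probes: 10 cytoplasmic proteins, 36 mitochondrial proteins and 11 assembly factors. These are 33.3% of the symbols of this form in the rabbit RefSeq gene table, and no probe was named RPS6 or RPL3, so the cytoplasmic ribosome was seen here through a small sample of its proteins. All 57 genes passed the filter on dim probes, and no spot of theirs was saturated.

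The samples were whole ileum, the last section of the small intestine, from commercial hybrid rabbits killed at 35 days of age, which is weaning, or at 49 days. While still in the nest, pups of the FF group (foreign feces) had access to fecal pellets of unrelated does that received no antibiotics, pups of the FFab group to pellets of unrelated does treated with tiamulin and tetracycline, and pups of the NF group (no feces) were kept from eating feces. In all 3 treatments the feces of the mother were removed from the nest, so none is an untouched control, and each rabbit gave 1 array. At day 35 there were 10 rabbits in FF, 9 in NF and 10 in FFab, and at day 49 there were 9 in each treatment. These 56 arrays leave out NF rabbit 78 of day 35, an array also set aside upstream as standing apart. The labels give no litter or sex, so littermates cannot be told apart from unrelated rabbits, and the p-values take each rabbit as independent.

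A ribosome has a small subunit that reads the messenger RNA and a large subunit that joins amino acids. Both are put together in the nucleolus, where RNA polymerase I makes the ribosomal RNA precursor: UTP proteins belong to the small subunit processome, which folds and cuts that precursor, while NOP56 and NOP58 form the core of the box C/D particles that guide methylation of ribosomal RNA, and NOP2 is a ribosomal RNA methyltransferase of the large subunit. Mitochondria hold ribosomes of their own, whose proteins are coded in the nucleus and which make a few subunits of the respiratory chain. In the gut, ribosome production is highest in the dividing cells of the crypts and low in the mature cells at the tips of the villi.

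Each gene was read through a single 60-base probe, and the value of a gene is the brightness of that sequence. The 7 probes below carry the main results, except that of RPS13, which is shown because its direction is unclear. The RPS13, MRPL18 and MRPL27 probes have no reading frame without a stop in their own direction and at least 1 in their reverse complement. The RPL35A probe has none in either direction. A probe outside the coding part of a gene can lack such a frame, so this alone does not settle a direction, which was not tested. Capitals run through each sequence because the whole probe is the target. The UTP15 and RPS13 probes had no genome position in the files. On the rabbit build oryCun2 the probe of NOP56 lies at chr4:9686671-9686730 on the plus strand, that of RPL4 at chr17:5900235-5900500 on the plus strand, that of RPL14 at chr9:3478013-3478072 on the minus strand, that of MRPL37 at chr13:112578983-112580333 on the minus strand and that of MRPS5 at chr2:95469503-95470007 on the plus strand. The positions of the RPL4, MRPL37 and MRPS5 probes span 266, 1351 and 505 bases, longer than the probe itself, so these sequences are split in the genome, as those that join exons are. Of the 48 mapped probes of these genes 13 spanned more than 60 bases, from 68 for MRPL55 to 22947 for MRPL1.
UTP15: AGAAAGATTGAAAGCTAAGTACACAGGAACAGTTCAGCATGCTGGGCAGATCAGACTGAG
NOP56: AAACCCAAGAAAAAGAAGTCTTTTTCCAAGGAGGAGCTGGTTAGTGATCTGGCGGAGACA
RPL4: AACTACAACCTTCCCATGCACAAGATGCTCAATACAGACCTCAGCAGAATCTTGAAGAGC
RPL14: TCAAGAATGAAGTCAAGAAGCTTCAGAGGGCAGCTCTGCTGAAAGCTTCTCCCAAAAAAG
MRPL37: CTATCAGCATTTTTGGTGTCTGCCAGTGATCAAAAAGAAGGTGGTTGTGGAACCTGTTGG
MRPS5: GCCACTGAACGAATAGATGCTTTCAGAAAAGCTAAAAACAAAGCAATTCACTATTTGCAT
RPS13: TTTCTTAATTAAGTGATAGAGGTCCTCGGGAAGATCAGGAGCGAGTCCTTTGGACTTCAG

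Levels are log2 signals after quantile normalization, which can be compared between rabbits for a probe and not between probes. A change is the day 49 mean minus the day 35 mean on the log2 scale, with its standard error, so that a change of -1 would be a halving of signal. Adjusted p-values are from limma with Benjamini-Hochberg adjustment over the 7979 genes tested, and a gene is said to have risen or fallen where that value was under 0.05. The study's own threshold also asks for a log2 change beyond 0.5. The number of arrays, and not a read depth, limits the precision.

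Between day 35 and day 49, genes of the cytoplasmic ribosome and of its assembly were lower at the later age, with the most calls in the FF rabbits, and genes of the mitochondrial ribosome had medians nearer 0. Over all 3 treatments 19 of the 57 genes fell (33.3%) and 1 rose, where 6.89% of all genes tested fell and 6.52% rose. In FF alone 17 fell (29.8%) and 1 rose, where 3.95% of all genes fell and 3.92% rose. In NF no member passed, against 0.0376% of all genes lower and 0.0251% higher, and in FFab no member passed, against 0.0125% lower and 0.0877% higher. Without adjustment, p was under 0.05 in NF for 7 members lower and 2 higher, where 2.59% of all genes were lower and 3.42% higher. In FFab it was for 15 lower and 2 higher, where 4.54% of all genes were lower and 3.9% higher, so the higher counts were near the background in both. The changes were small: with the study's fold minimum the calls of members came down to UTP15 in FF, where 1.49% of all genes fell by that rule, and to none over all rabbits, where 1.08% of all genes did. UTP15, named only through its earlier call, is also among the 19 and the 17 that fell.

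**Figure D1:**
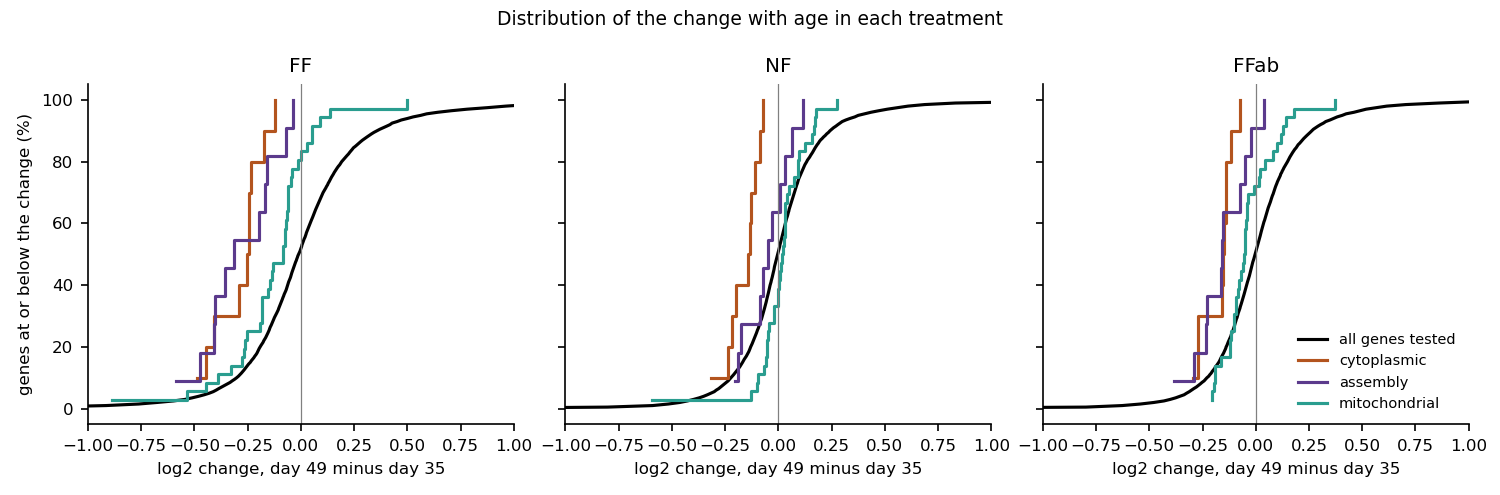
Cumulative share of genes (percent, vertical axis) against the log2 change from day 35 to day 49 (horizontal axis), 1 panel per treatment, for all 7979 genes tested and for the cytoplasmic, assembly and mitochondrial genes. The cytoplasmic curve lies left of 0 throughout in every panel, and 83.3% of the mitochondrial genes lie below 0 in FF, 38.9% in NF and 72.2% in FFab, against 51.9%, 50.9% and 50.7% of all genes.

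The 5 measured proteins of the large cytoplasmic subunit all fell over all rabbits. RPL4, a protein that lines the tunnel through which the new chain leaves, had a level in FF from 16.25 to 16.71 at day 35 (median 16.55) and from 15.85 to 16.35 at day 49 (median 16.13). Of the 9 FF rabbits of day 49, 8 were below every FF rabbit of day 35. Its level went from a median of 16.43 to 16.06 in NF, where 7 of 9 rabbits of day 49 were below every rabbit of day 35, and from 16.42 to 16.14 in FFab, where 6 of 9 were. RPL4 fell by 0.34 ± 0.04 over all rabbits (adjusted p = 3.54e-07) and by 0.44 ± 0.08 in FF (adjusted p = 0.000137), and neither the NF value of -0.32 ± 0.08 (adjusted p = 0.0986) nor the FFab value of -0.27 ± 0.08 (adjusted p = 0.187) passed.

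RPL14, another large subunit protein, ran in FF from 15.73 to 16.13 at day 35 (median 16.03) and from 15.30 to 15.75 at day 49 (median 15.47). Again 8 of the 9 older FF rabbits were below all the younger ones. The medians went from 15.74 to 15.49 in NF and from 15.78 to 15.48 in FFab, where the 9 older rabbits lay between 15.38 and 15.53. RPL14 fell by 0.32 ± 0.04 over all rabbits (adjusted p = 5.68e-07) and by 0.49 ± 0.07 in FF (adjusted p = 1.93e-05), and its changes of -0.22 ± 0.08 in NF and -0.27 ± 0.07 in FFab did not pass. The other members of this subunit changed less. RPL37A fell by 0.16 over all rabbits and by 0.25 in FF (adjusted p = 0.000122 and 0.00165). RPL18 and RPL35A fell by 0.14 and 0.12 over all rabbits (adjusted p = 0.0093 and 0.0208), and in FF their values of -0.18 and -0.12 had adjusted p-values of 0.0991 and 0.237.

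Of the 5 proteins of the small cytoplasmic subunit, 4 fell over all rabbits and the same number in FF. RPS25, a protein of this subunit, had FF levels from 16.77 to 17.19 at day 35 (median 17.00) and from 16.51 to 16.91 at day 49 (median 16.66). In FF 7 of the 9 older rabbits were below all the younger ones, and all 9 were below their median. In NF its median went from 16.81 to 16.73 and in FFab from 16.83 to 16.65, with more overlap. RPS25 fell by 0.20 ± 0.04 over all rabbits (adjusted p = 0.000255) and by 0.29 ± 0.06 in FF (adjusted p = 0.00242).

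RPS12 and RPS20, also part of the small subunit, fell by 0.20 and 0.16 over all rabbits and both by 0.25 in FF, with adjusted p-values in FF of 0.0103 and 0.0037. Scaling the arrays by the 75th percentile in place of quantile normalization left RPS20 at -0.15 over all rabbits with an adjusted p of 0.13 and at -0.25 in FF with 0.166. RPS12, RPS20 and RPS25 had several probes each, 5, 5 and 10, whose FF changes ran from -0.25 to -0.18, from -0.25 to -0.18 and from -0.33 to -0.14. The probes of RPS12 and of RPS20 overlap and are not independent. The probes of RPS25 lie in a pair of places that do not overlap, with FF changes of -0.33 to -0.29 where the gene was read and -0.21 to -0.14 at the other. RPS13 had -0.15 ± 0.06 over all rabbits (adjusted p = 0.0833). Its probe, printed above, comes from the end of a cDNA clone and has no reading frame without a stop in its own direction. Its reverse complement has 1, so the probe may not measure the RPS13 messenger RNA, and which strand it reads was not tested.

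Counting RPS13, whose probe has an unclear direction, all 10 cytoplasmic genes were below 0 in every treatment. Their median change was -0.18 over all rabbits, -0.25 in FF, -0.14 in NF and -0.15 in FFab, beside medians over all genes within 0.02 of 0. Without RPS13 all of these medians kept their sign. Among them 9 of 10, all but RPS13, fell over all rabbits and 7 in FF, against 6.89% and 3.95% of all genes. All of them but RPS13 belong to the brightest 5% of the genes tested (399 genes). In that part 13.8% fell and 13.3% rose over all rabbits, with a median change of 0.004. In FF 9.52% of that part fell and 7.77% rose. Genes of this brightness were thus called more often than others and in both directions.

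**Figure D2:**
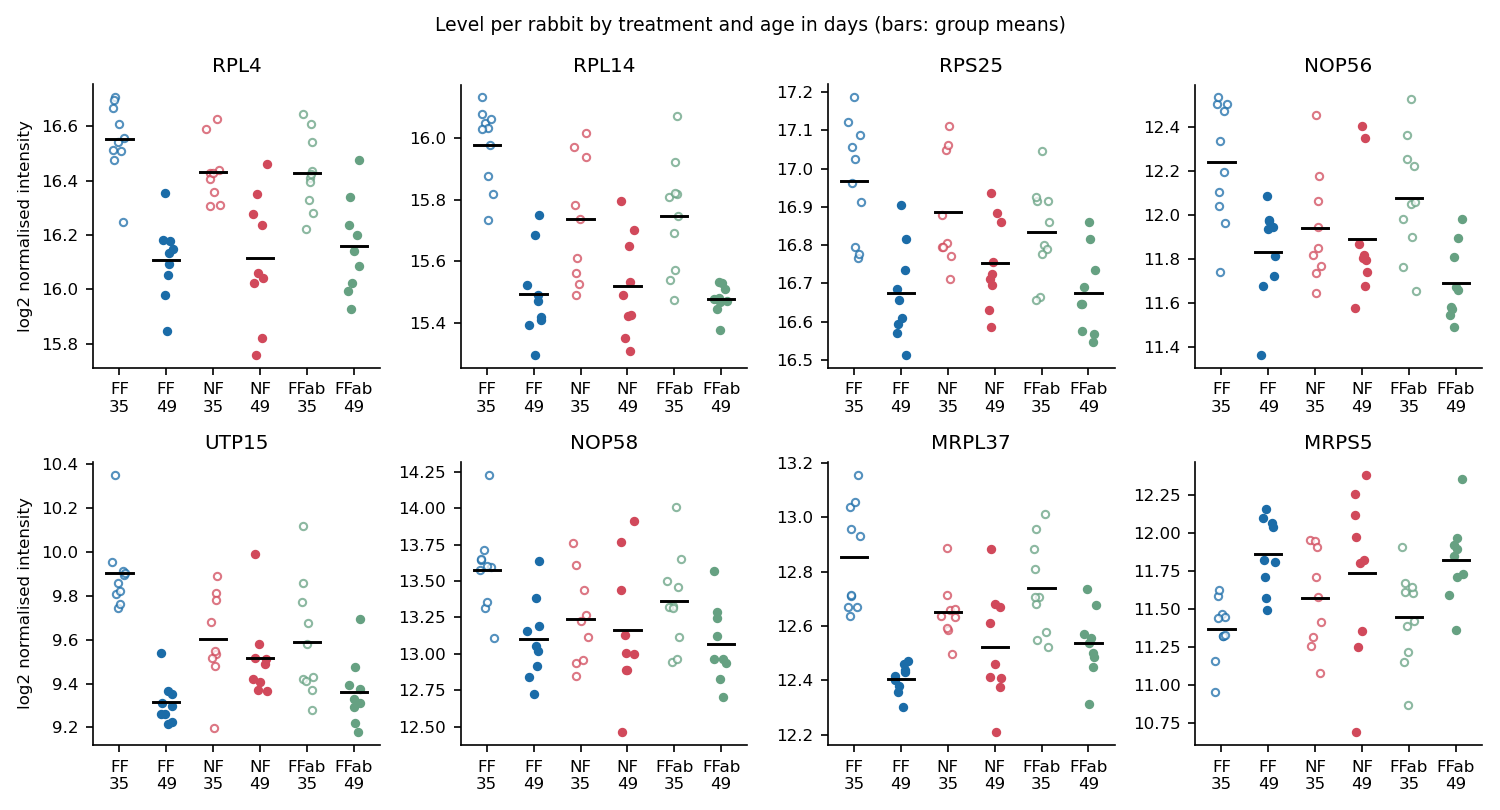
Level (log2 normalized signal, vertical axis) of RPL4, RPL14, RPS25, NOP56, UTP15, NOP58, MRPL37 and MRPS5 in each of the 56 rabbits, by treatment and day: open circles are day 35, filled circles day 49, bars group means. The FF rabbits of day 35 and day 49 do not overlap for UTP15 and MRPL37, and MRPS5 is the gene with higher values at day 49.

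UTP15, a part of the small subunit processome that also supports the making of the ribosomal RNA precursor, had the largest change in FF among the 18 of the 57 genes that passed there, and it was already known from earlier results of these data. In FF its level lay between 9.75 and 10.35 at day 35 (median 9.88) and between 9.22 and 9.54 at day 49 (median 9.30), with no overlap. In NF the ages overlapped fully, from 9.20 to 9.89 at day 35 (median 9.55) and from 9.37 to 9.99 at day 49 (median 9.49). In FFab the range was 9.28 to 10.12 at day 35 (median 9.50) and 9.18 to 9.69 at day 49 (median 9.33). UTP15 fell by 0.59 ± 0.09 in FF, to 0.665 of the day 35 signal (adjusted p = 1.93e-05), and by 0.30 ± 0.05 over all rabbits (adjusted p = 5.32e-05), while its values in NF (-0.09 ± 0.09) and FFab (-0.23 ± 0.09) did not pass.

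UTP15, MRPL37 and MRPL40 had FF groups that did not overlap with day 49 lower, that is 3 of 57 genes, where 0.376% of all genes tested did. Of these, UTP15 was a member only through its earlier call. The other UTP genes varied. UTP14A, a processome factor, fell by 0.22 over all rabbits (adjusted p = 0.0058) and by 0.31 in FF (adjusted p = 0.0362), and the FF call was kept in 10 of 19 fits that each left out 1 FF rabbit. Without FF rabbit 87 of day 35 the FF change was -0.25 with an adjusted p of 0.098. UTP20, a large scaffold protein of the processome, stood at -0.40 ± 0.14 in FF (adjusted p = 0.0595) and at 0.03 in NF. UTP23, UTP25, UTP3 and UTP4 lay between -0.20 and -0.04 in FF, and none passed. For UTP23 the probe read gave -0.20 ± 0.09 in FF and its other probe -0.32 ± 0.07.

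NOP56 went in FF from a median of 12.27 (11.74 to 12.54) to 11.94 (11.37 to 12.09), in NF from 11.85 (11.65 to 12.45) to 11.81 (11.58 to 12.41) and in FFab from 12.05 (11.66 to 12.53) to 11.66 (11.49 to 11.98). It fell by 0.28 ± 0.07 over all rabbits (adjusted p = 0.00287) and by 0.41 ± 0.12 in FF (adjusted p = 0.0188), and the values of -0.05 in NF and -0.39 in FFab (adjusted p = 0.231) did not pass. The FF call was lost in 1 of 19 fits without an FF rabbit (-0.35, adjusted p = 0.0563, without 1 rabbit of day 49). For NOP56 the FFab value was thus nearly that of FF, and all 9 older rabbits of both treatments were below the median of the younger ones.

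NOP58, the partner of NOP56 in the box C/D core, ran in FF from 13.11 to 14.23 at day 35 (median 13.60) and from 12.73 to 13.63 at day 49 (median 13.05). The groups overlapped, and 5 of the 9 older rabbits were below all the younger ones. NOP58 fell by 0.28 ± 0.09 over all rabbits (adjusted p = 0.0231) and by 0.48 ± 0.15 in FF (adjusted p = 0.0367), a call kept in 10 of 19 fits without 1 FF rabbit and lost, for example, without rabbit 87 of day 35 (-0.40, adjusted p = 0.0901). NOP2 fell by 0.21 over all rabbits and by 0.36 in FF (adjusted p = 0.00718 and 0.0119), its FF median going from 8.58 to 8.21. NOP9, needed for small subunit processing, was at -0.13 over all rabbits (adjusted p = 0.329).

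Of the 11 assembly genes 5 fell over all rabbits and the same 5, UTP15, UTP14A, NOP56, NOP58 and NOP2, fell in FF. These are 45.5% of the class, against 6.89% of all genes over all rabbits and 3.95% in FF. The share counts UTP15, which was a member only through its earlier call. The median change of the 11 was -0.18 over all rabbits, -0.31 in FF, -0.05 in NF and -0.16 in FFab. Below 0 were 11 of 11 in FF, 7 in NF and 10 in FFab. Without UTP15 all of these medians kept their sign.

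Of the 36 mitochondrial ribosomal proteins 5 fell and 1 rose over all rabbits, and 5 fell and 1 rose in FF. The 5 that fell are 13.9% of the class, above the 6.89% of all genes over all rabbits and the 3.95% in FF, and below the shares of the cytoplasmic and assembly genes. MRPL37, a protein particular to the mitochondrial large subunit, had the clearest drop. Its FF level lay between 12.64 and 13.16 at day 35 (median 12.82) and between 12.30 and 12.47 at day 49 (median 12.42), with no overlap. In NF the medians were 12.64 and 12.46, and in FFab 12.71 and 12.54, and in both treatments the ages overlapped. MRPL37 fell by 0.26 ± 0.04 over all rabbits (adjusted p = 2.72e-05) and by 0.45 ± 0.07 in FF (adjusted p = 7.75e-05), and its 5 overlapping probes all gave -0.45 to -0.44 in FF.

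MRPL40, a large subunit protein, had FF levels of 14.25 to 14.51 at day 35 and 14.04 to 14.25 at day 49, without overlap, and it fell by 0.18 ± 0.04 in FF (adjusted p = 0.00455), a small change with little spread. MRPL9 fell by 0.28 in FF (adjusted p = 0.00985). Both fell over all rabbits too, by 0.11 and 0.15, as did MRPS26 (by 0.12) and MRPL52 (by 0.13, adjusted p = 0.0396, kept in 37 of 56 fits without 1 rabbit). MRPL17 fell by 0.33 in FF (adjusted p = 0.0405), a call kept in 9 of 19 fits without 1 FF rabbit. Without the brightest FF rabbit of day 35 the change was -0.20 with an adjusted p of 0.0839, and in the other fits that lost the call it stayed between -0.33 and -0.31. MRPS26 fell by 0.18 in FF with an adjusted p of 0.0447, which was above 0.05 in 7 of 11 other ways of processing, and the call was kept in 7 of 19 fits without 1 FF rabbit.

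The gene that rose was MRPS5, a small subunit protein of the mitochondrial ribosome near the entry of the messenger RNA. Its FF level ran from 10.96 to 11.63 at day 35 (median 11.38) and from 11.49 to 12.16 at day 49 (median 11.82). In NF the medians were 11.58 and 11.83 and in FFab 11.51 and 11.85, so the older group was the higher one in all 3 treatments, with overlap in each. MRPS5 rose by 0.35 ± 0.09 over all rabbits (adjusted p = 0.00493) and by 0.50 ± 0.15 in FF (adjusted p = 0.031). The FF call was lost with NF rabbit 78 included (adjusted p = 0.096) and kept in 13 of 19 fits without 1 FF rabbit.

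The median of the 36 was -0.05 over all rabbits, -0.08 in FF, 0.02 in NF and -0.05 in FFab, and 30 of 36 were below 0 in FF, 14 in NF and 26 in FFab. Among those that did not pass, MRPS10 stood at -0.39 ± 0.14 in FF and MRPS15 at -0.54 ± 0.29 in FF and -0.59 ± 0.30 in NF. The widest standard error belonged to MRPS27, at -0.27 ± 0.24 over all rabbits and -0.89 ± 0.41 in FF, which was well above background on 35 of 56 arrays.

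**Figure D3:**
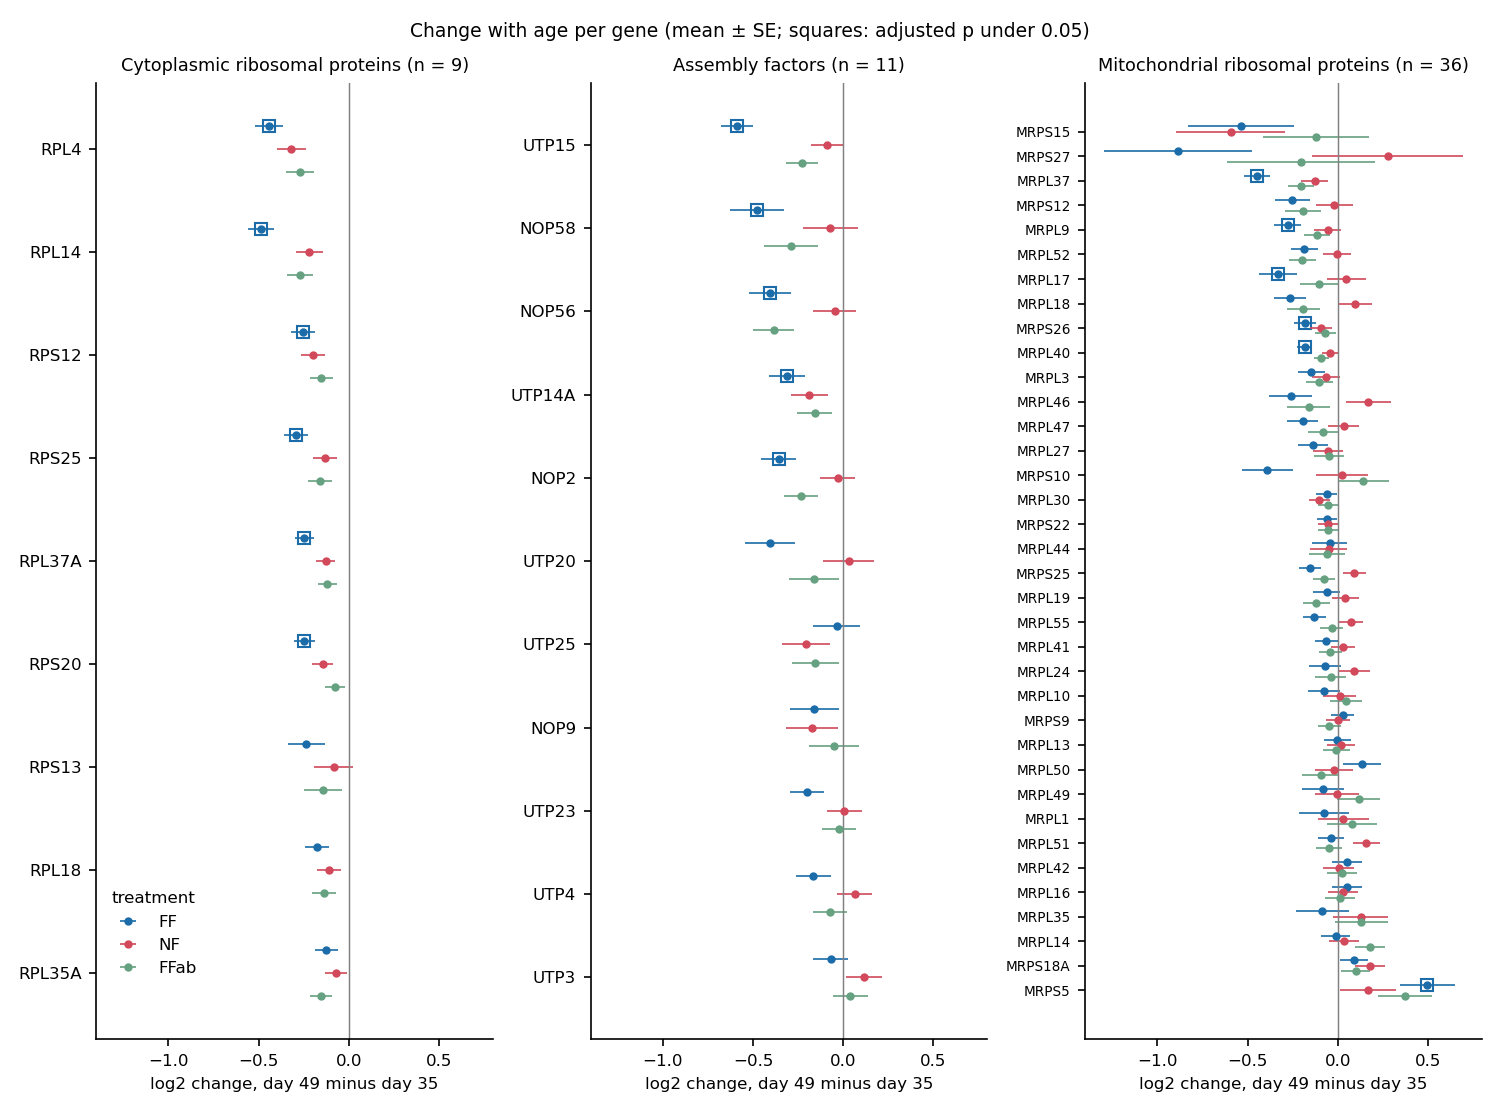
Log2 change from day 35 to day 49 (horizontal axis) with its standard error for 56 of the 57 genes, in FF, NF and FFab, 1 panel each for cytoplasmic, assembly and mitochondrial genes; squares mark adjusted p under 0.05. The FF points lie left of the NF points for UTP15 (-0.59 against -0.09) and MRPL37 (-0.45 against -0.13), while the cytoplasmic genes shown all lie left of 0 in each treatment.

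The next question was whether the age change differed between treatments. Over the 57 genes none passed in the test of the difference itself, where 0% of all genes tested passed for FF minus NF, 0% for FF minus FFab and 0% for NF minus FFab. At an unadjusted p under 0.05, FF minus NF was lower for 14 members and higher for none, against 2.47% of all genes lower, FF minus FFab was lower for 5, against 1.4%, and NF minus FFab was higher for 3, against 0.915% either way. The first pair of these comparisons share the FF rabbits, so they are not independent. Both count UTP15, which was a member only through its earlier call with age. UTP15 had the smallest p in both: its age change in FF was more negative than in NF by 0.50 ± 0.13 (p = 0.000283, adjusted p = 0.693) and more negative than in FFab by 0.36 (p = 0.00644, adjusted p = 0.999). MRPL37 stood at -0.32 ± 0.11 for FF minus NF (p = 0.00389), MRPL18 at -0.36 ± 0.13 (p = 0.00689) and MRPS10 at -0.53 for FF minus FFab (p = 0.00979). For NF minus FFab the smallest p was that of MRPL18, at 0.29 (p = 0.03). Which strand the MRPL18 probe reads was not tested. A change that passed in FF and did not in NF or FFab is therefore not shown to differ between them.

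Within a day, no member passed between treatments in any of the 6 pairs, where 0.0104% of all gene tests passed. At an unadjusted p under 0.05, 9 members were higher in FF than NF at day 35 and 10 were higher in FF than FFab, against 3.67% and 2.97% of all genes, and none for NF against FFab. At day 49 FF was lower than NF for 2 members, against 0.652% of all genes, FF was higher than FFab for 1, against 1.17%, and NF was higher than FFab for 3, against 1.09%. The single member in the second of these is near the background. UTP15 at day 35 was higher in FF than NF by 0.30 (p = 0.00167, adjusted p = 0.263) and higher than FFab by 0.31 (p = 0.000794, adjusted p = 0.336), and RPL14 by 0.24 and 0.23.

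The mean of each class in a rabbit, taken relative to its mean over all 56 rabbits, gives the same view for whole classes. For the cytoplasmic genes it was 0.166 ± 0.0704 (SD, n = 10) in FF at day 35 and -0.125 ± 0.0906 (SD, n = 9) at day 49. In NF it was 0.0759 and -0.0882, and in FFab 0.0616 and -0.116, so the 3 treatments lay closer together at day 49 than at day 35. For the assembly genes the means were 0.179 and -0.109 in FF, 0.0245 and -0.0291 in NF, and 0.0339 and -0.123 in FFab. For the mitochondrial genes they were 0.0791 and -0.0555 in FF and within 0.04 of 0 in NF and FFab.

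**Figure D4:**
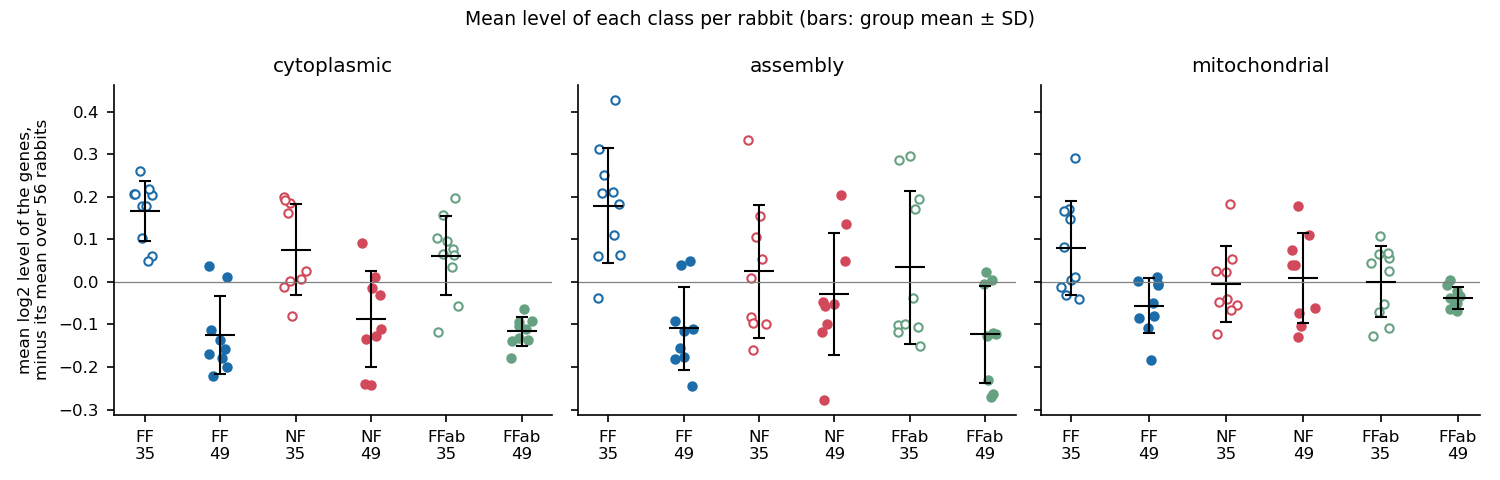
Mean log2 level of the cytoplasmic, assembly and mitochondrial genes in each rabbit, minus the mean over all 56 rabbits (vertical axis), by treatment and day, with group mean and SD. FF rabbits of day 35 hold the highest group mean for each class (0.166, 0.179 and 0.0791), and no cytoplasmic group mean of day 49 is above 0.

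The arrays came on 9 slides of 6 or 7, each with all 6 groups. Where slides held both ages of a treatment, each gene's change was averaged over slides and the median over genes was taken. For the cytoplasmic genes this was -0.26 in FF, -0.15 in NF and -0.16 in FFab. The median of these genes within a slide was above 0 on 0 of 9 slides in FF, 2 of 8 in NF and 0 of 9 in FFab. For the assembly genes the median of the slide averages was -0.28 in FF, with 0 of 9 slides above 0, -0.09 in NF, with 3 of 8, and -0.17 in FFab, with 2 of 9. For the mitochondrial genes it was -0.07 in FF, with 2 of 9 above 0, 0.02 in NF, with 4 of 8, and -0.07 in FFab, with 4 of 9. Across the 56 rabbits, after the group means were removed, pairs of cytoplasmic genes had a median correlation of 0.42, NOP genes 0.51, UTP genes 0.15 and mitochondrial genes 0.16, a description over rabbits that share slides and normalization.

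The rest of the ribosome pathway was read from lists of genes outside the symbols above, again chosen with earlier results known. Of all genes tested 6.89% fell over all rabbits and 3.95% in FF. Among 28 further factors of the small subunit and its guide particles, 10 fell over all rabbits and 9 in FF, with median changes of -0.10 and -0.17. IMP3, a protein of the U3 particle, fell by 0.22 over all rabbits and by 0.42 in FF (adjusted p = 0.000352), and WDR43, a processome subunit, fell by 0.29 and 0.41. Among 26 large subunit factors 9 fell over all rabbits and 10 in FF, with medians of -0.16 and -0.27. RSL24D1, a late-acting large subunit factor, fell by 0.53 in FF (adjusted p = 5.42e-05), and PES1 and GNL3, nucleolar proteins of large subunit maturation, fell by 0.39 and 0.35 in FF.

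Of 12 genes of RNA polymerase I and the nucleolus, 5 fell over all rabbits and 4 in FF, against 6.89% and 3.95% of all genes. MYC, a transcription factor known to drive genes of ribosome production, fell by 0.52 over all rabbits (adjusted p = 2.99e-05) and by 0.54 in FF (adjusted p = 0.0156), and stood at -0.40 in NF and -0.63 in FFab (adjusted p = 0.0777). POLR1C and POLR1B, subunits of the polymerase, fell by 0.32 and 0.21 over all rabbits. Of 15 cytosolic translation factors 8 fell over all rabbits, 5 in FF, 2 in NF and 1 in FFab. Among all genes 0.0376% fell in NF and 0.0125% in FFab. EEF1B2, which recharges the elongation factor that brings amino acids, fell in every treatment, by 0.42 in FF, by 0.27 in FFab (adjusted p = 0.0308) and by 0.30 in NF (adjusted p = 0.0135), and EIF3M, a subunit of initiation factor 3, fell by 0.42 in FF and 0.34 in NF (adjusted p = 0.0288). RPLP1, a stalk protein of the cytosolic ribosome, fell by 0.14 over all rabbits. Of 11 other genes of mitochondrial translation 1 fell, OXA1L, by 0.19 over all rabbits (adjusted p = 0.0458), and none in FF. The 1 of 11 is near the 6.89% of all genes.

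A whole-tissue sample mixes cell types, and fewer cells of a type cannot be told apart from less RNA per cell. Markers of other cells and of the crypt moved with age as well. All 5 measured enterocyte markers (FABP2, FABP6, SLC10A2, APOA1, ALPI) were above 0 over all rabbits and in FF, with ALPI, an alkaline phosphatase of mature villus cells, higher by 1.13 in FF (adjusted p = 0.0082). Their mean level in FF ran from 13.96 to 15.52 at day 35 and from 15.41 to 15.67 at day 49, and rabbits at or under 12.14 were found in NF at both ages and in FFab at day 35. All 11 markers of cycling crypt cells were below 0 over all rabbits, with a median of -0.21, and MCM6, a replication helicase subunit, fell by 0.31 (adjusted p = 0.0429). Their median was -0.12 in FF, -0.22 in NF and -0.21 in FFab, and their mean level in FF ran from 10.01 to 11.44 at day 35 and from 10.02 to 10.57 at day 49.

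The 5 smooth muscle markers were all above 0 in FF (median 0.38) and all below 0 in NF (median -0.18), and none passed. Their mean level ran from 11.80 to 13.22 in FF at day 35 and from 12.52 to 13.89 at day 49. Over all rabbits 4 of 5 T cell markers were above 0, and of these CD8A rose by 0.33 (adjusted p = 0.0149). All 3 B and plasma cell markers were above 0, and TNFRSF17 rose by 0.67. Of 4 red blood cell markers 1 was above 0, and CA1 and ALAS2 fell. All 3 fat markers were above 0, and LPL and FABP4 rose by 1.36 and 1.72. The other markers of these lists did not pass. The part of these cells in the ribosomal changes was not tested.

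**Figure D5:**
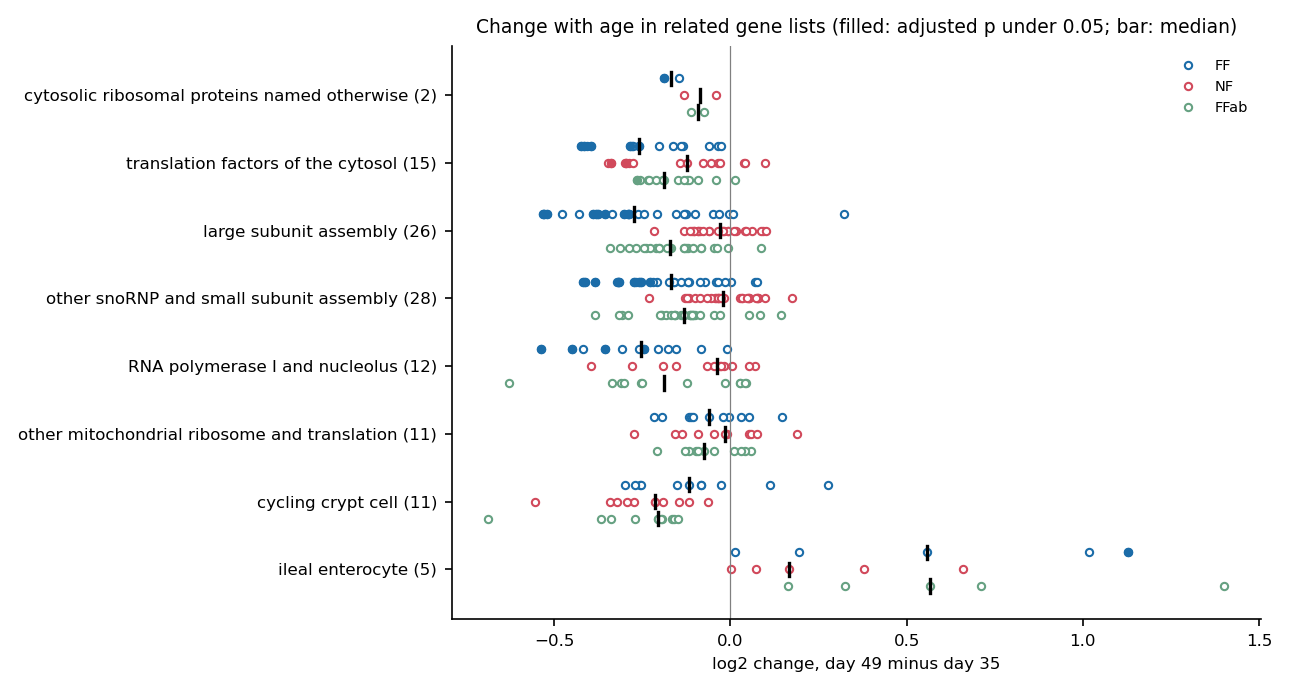
Log2 change from day 35 to day 49 (horizontal axis) of each gene in 6 further lists of the pathway and in the crypt and enterocyte markers, in FF, NF and FFab; filled points passed adjusted p under 0.05, bars are list medians, and the number of genes stands beside each list. The FF median lies left of the NF median in the cytosolic lists (-0.27 against -0.03 for large subunit assembly), and not in the crypt markers (-0.12 against -0.22).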

How the data were processed

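Whole-ileum RNA of 57 rabbits was hybridised to 1-colour Agilent rabbit arrays of 62976 spots. The deposited scanner files hold the intensity of each spot (processed signal, background subtracted and detrended, not normalized between arrays), made by the authors with Agilent Feature Extraction, whose version reads 10.10.1.1 in the file headers and 10.7.3.1 in the submitters' processing notes. The authors also deposited a value table of log2 signals, quantile normalized by them, whose starting column is not stated. It was used as an alternative.

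Spots of a probe were averaged without outlier flags, floored at 1, log2 transformed and quantile normalized over 42089 probes. A probe was kept where at least 50% of its spots were well above background, per the deposited scanner flag, on 75% of the arrays of a group (31722 probes). Names came from accessions and gene IDs matched to the RefSeq table of assembly mOryCun1.1, or from the study's lists of called genes (UTP15). For 80 probes, among them that of RPL18, the array's own gene name was taken without a match to that table. Of 42089 probes, 21437 stayed unnamed and 22 named several genes. A gene was read from its kept probe of median level, as in the study's methods, which also gave the design: limma 3.58.1 in R 4.3.3, 1 mean per group, 56 arrays, Benjamini-Hochberg over 7979 genes. The limma steps were tested on simulated data with 200 planted genes. Groups came from the labels.

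The members and lists were chosen with earlier results of these data known. By rule, the genes named are the members past adjusted p 0.05, the 4 smallest p per class, the 3 smallest p per difference, UTP15, RPL4, RPS6, RPL3, NOP56, NOP58, NOP2, and up to 4 genes of each list of the pathway. Other members named, and the cell type markers beyond the ones that passed, fall outside this rule and were chosen after their values were seen. The alternatives were all 57 arrays, the authors' values, normexp background correction, 75th percentile scaling, other filters, slide as a fixed or random block, array weights, probe means, the arrays of 1 treatment alone, and each rabbit left out. Those without RPS13, UTP15 or MRPS27 and those without each rabbit were added after seeing the data. A cytoplasmic member counted with its class is not reported by itself here.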

Additional observations from a re-analysis of the deposited data

Results flagged for a closer look

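Of 168 groups tested, each of them 1 gene or 1 class mean in 1 group of rabbits, 10 held a rabbit far from the others. Chance flags about 1 group in 20, that is 8.4. The class means contain the single genes, so the tests are not independent. In FF at day 35, UTP14A was 12.12 in 1 rabbit, with the nearest rabbit at 11.67, and MRPL17 was 14.26 in 1 rabbit, with the nearest at 13.10. In the same group UTP15 was 10.35 and RPL4 16.25 in 1 and the same rabbit, with the nearest rabbits at 9.956 and 16.47. In FF at day 49, UTP15 was 9.538 in 1 rabbit (nearest 9.364), RPL37A 17.44 in 1 rabbit (nearest 17.30) and MRPS25 12.45 in 1 rabbit (nearest 12.69). In NF at day 49, UTP15 was 9.993 in 1 rabbit (nearest 9.582). In FFab at day 35, RPS20 was 18.05 in 1 rabbit (nearest 18.25) and MRPL40 14.10 in 1 rabbit (nearest 14.27). The FF calls of UTP14A and MRPL17 were lost without these rabbits, with changes of -0.25 and -0.20 and adjusted p-values of 0.098 and 0.0839 by limma.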

How the results depend on the processing

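The class medians kept their direction in all 12 alternatives and moved by less than the spread between rabbits: the cytoplasmic median lay between -0.22 and -0.17 over all rabbits and between -0.31 and -0.23 in FF, the assembly median between -0.20 and -0.16 and between -0.31 and -0.26, and the mitochondrial median between -0.06 and -0.04 over all rabbits. In NF, where the assembly median was -0.05, it ran from -0.10 to -0.04, and the mitochondrial one from 0.01 to 0.03. Counts of members past adjusted p 0.05 were 20 over all rabbits (17 to 23 in the alternatives) and 18 in FF (13 to 23). The FF count with the fold minimum was 1, and 2 with 75th percentile scaling and 3 with array quality weights. In NF the count of 0 became 1 with the authors' value table, 1 with slide as a random block and 1 with array quality weights. In FFab it became 1 with the authors' value table and 2 with array quality weights. Leaving out each rabbit in turn gave 19 to 22 members over all rabbits, 13 to 20 in FF, and 1 to 4 in FF with the fold minimum. UTP15 kept its FF call in all 19 such fits (-0.62 to -0.54). No class median and no called member changed sign in these alternatives, while members near 0 did: the number of assembly genes below 0 in NF was 7, and 6 with all 57 arrays. No paired analysis was possible because the rabbit numbers in the labels are unique and pair no samples between groups.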

Other observations

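MRPS15, a small subunit protein of the mitochondrial ribosome that is not called in any comparison, had levels in 2 separate ranges: 22 rabbits from 9.769 to 10.45 and 34 rabbits from 10.96 to 12.03, with a gap of 0.513 between them. The lower range held 3 of 10 FF, 1 of 9 NF and 3 of 10 FFab rabbits at day 35, and 5 of 9 FF, 7 of 9 NF and 3 of 9 FFab rabbits at day 49. Its change over all rabbits was -0.42 ± 0.17 (adjusted p = 0.102 by limma). The gene was singled out after its values were seen.

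Several genes had probes that differed. The probes of MRPL35 spanned 6.23 log2 units in level while their FF changes lay between -0.11 and -0.04, and the FF changes of the probes of UTP25, MRPL1, MRPL13 and MRPL14 differed in sign.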
